A study of Mus musculus with 12 samples.

Results

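Lung adenocarcinomas of cyclin E-transgenic mice were compared with histologically normal lung taken next to them. The comparison held 8 of the 12 arrays of the series, 4 of tumors and 4 of adjacent lung, and these were found by their sample titles. All 8 came from male FVB mice that carried wild-type human cyclin E under the human surfactant protein C promoter and had been aged for 7 to 11 months. The other 4 arrays were of lung from non-transgenic male FVB mice of the same age range, and they were not part of the contrast. They entered the estimate of the spread and the signal means and percentiles taken over all 12 arrays. Their values are also set beside those of the transgenic tissues. Total RNA of each piece of tissue was labeled with biotin as cRNA and hybridized to 1 Affymetrix mouse array, which reads a transcript with a set of short probes. Adjacent lung carried the transgene as well, so that the comparison is between tumor and normal tissue of transgenic mice and not between presence and absence of cyclin E. Each adjacent lung is described as neighbor of a coded tumor and each tumor as neighbor of a coded lung, and the codes imply that samples of the same replicate number came from the same mouse.

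Cyclin E is a regulatory subunit of cyclin-dependent kinase 2, and this kinase drives cells from G1 into S phase. Surfactant protein C is made by alveolar type II cells, the cells that secrete surfactant and can renew the alveolar epithelium, and its promoter is widely used to place a transgene in the distal lung epithelium. Lung adenocarcinoma is a tumor of glandular epithelium. A piece of normal lung also holds alveolar type I cells, airway cells, capillary endothelium, fibroblasts, smooth muscle and immune cells, and a solid tumor can hold all of these in other proportions.

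The deposited table gave 1 log2 signal per probe set and array, so that a difference of 1 is a 2-fold change. It held 45101 probe sets, of which 64 were controls of the array and 45037 were tested. The tables used here do not pair the probe sets with genes. The results are therefore counts of probe sets and not of genes, the tissue labels were not checked against cell type markers, and the tankyrases and the other Wnt pathway members were not told apart from the rest. Only the array's own controls, whose identifiers spell out a transcript, are named. The table has no detection calls, and its median of 4.18 and 75th percentile of 6.47 serve below as marks of low and high signal.

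A pair of arrays stood apart from their groups. Tumor 2 lay at a mean Euclidean distance of 168.8 log2 units from the other tumors, while the remaining tumors lay at 111.1 to 117.3 from their group. It was closer to adjacent lung (126.1) than to its own group, which was not the case for tumors 1, 3 and 4 (180.4 to 191.4 from adjacent lung). Adjacent lung 3 lay at 125.3 from its group, against 82.5 to 86.6 for the other adjacent lungs, and 52.7% of its probe sets exceeded the median of the table, against 49.9 to 50.3% in the others. Its share above the 75th percentile was not larger, at 24.4% against 24.7 to 25.4%. The excess was thus of probe sets between these marks and not of bright ones. Results are given with and without these arrays where they matter.

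Many probe sets distinguished tumors from adjacent lung, and the decreases were deeper than the increases. With limma and an adjusted p below 0.05, tumors exceeded adjacent lung in 2845 (6.32%) of 45037 probe sets and fell short of it in 3851 (8.55%). At least 2-fold changes were 1071 increases (2.38%) and 2286 decreases (5.08%), and at least 4-fold changes were 179 increases and 864 decreases. The excess of decreases grew with the size of the change, to 26 against 301 at 8-fold and 4 against 83 at 16-fold. The median change was 0.86 log2 units among probe sets that were higher, with quartiles of 0.65 and 1.24. Among those that were lower it was -1.17, with quartiles of -1.89 and -0.77. In bulk tissue, fewer cells of a type and less RNA per cell cannot be told apart.

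All 4 tumors lay above all 4 adjacent lungs in 2960 probe sets (6.57%) and below them in 4111 (9.13%). Among the probe sets called, 1811 of the 2845 higher ones and 3130 of the 3851 lower ones had no such overlap.

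The balance of the direction depended on the scale and on single arrays, and so did the size of the excess of large decreases, though not its direction in the fits given here. The median of all differences was -0.007 as deposited and 0.11 after each array was centred on its own median, and with that centring 5087 probe sets were higher and 3123 lower. The centring acted most on adjacent lung 3 among the adjacent lungs, since its own median was 4.38 against 4.17 to 4.21. Without adjacent lung 3, the median of all differences was 0.039 as deposited, and limma called 2601 higher and 3586 lower. Without tumor 2, limma called 5873 higher and 5658 lower. A fit to the 8 arrays that blocked on replicate number called 803 higher and 2226 lower, and the same fit without the block called 1117 and 2686. The numbers fell most when the spread was not taken as equal between the groups. An unequal-variance test called 33 higher and 179 lower after adjustment, with 2 and 62 of them at 4-fold or more. Leaving out any 1 of tumors 1, 3 and 4 or adjacent lungs 1 and 2 brought the higher calls to 1264 to 1610. At 4-fold or more, decreases outnumbered increases in each of these fits, with 229 increases and 771 decreases after centring, 430 and 1212 without tumor 2, and 105 and 805 with the block. Without any 1 of tumors 1, 3 and 4 or adjacent lung 1, the 4-fold increases numbered 89 (without tumor 4) to 113 and the decreases 741 to 773.

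**Figure D1:**
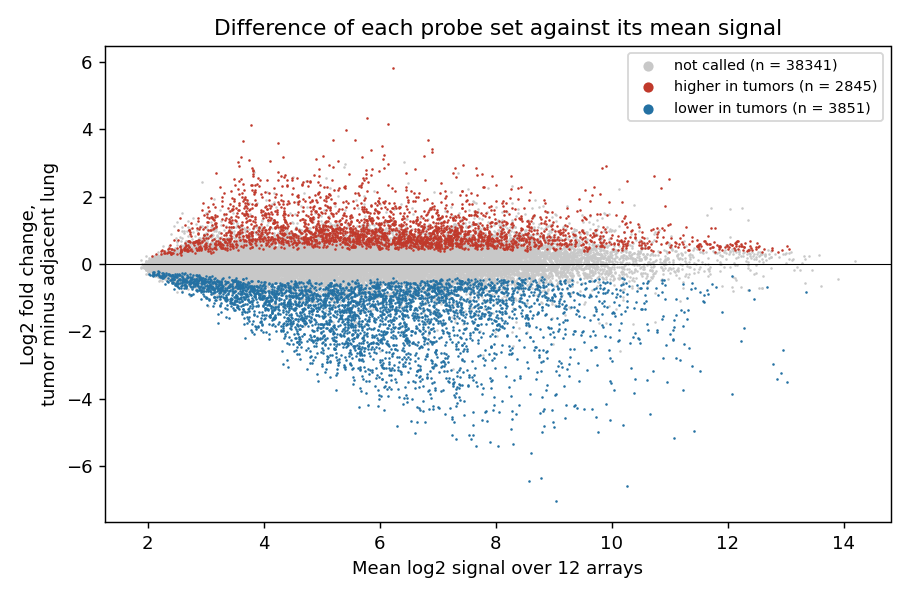
Log2 fold change of tumor minus adjacent lung (vertical axis) against the mean log2 signal over 12 arrays (horizontal axis) for 45037 probe sets, with those called higher (2845) in red, lower (3851) in blue and the rest in gray. Blue points reach -7.02 and red points 5.83, and below -4 there are 83 called points against 4 above 4.

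Brighter probe sets were called more often. Among the 22317 probe sets whose mean over the 12 arrays was at or below the table's median, 2.38% were higher and 3.51% lower. Between the median and the 75th percentile these shares were 9.02% and 13.8%. Above the 90th percentile, among 4209 probe sets, they were 13% and 13.6%, so that the excess of decreases was smallest in the brightest class. The suffix of a probe set states how specific its probes are. The plain suffix AT marks probes for a single transcript, A_AT probes shared by transcripts of a gene, S_AT probes shared by transcripts of possibly different genes, and X_AT probes of which some resemble other sequences. Of 36082 plain probe sets 5.32% were higher and 8.41% lower, while of 4426 A_AT probe sets 10.1% moved each way. Of 2441 X_AT probe sets 10.9% were higher and 6.72% lower, and these calls cannot be tied to a single transcript. Mean signal and suffix were not separated from each other.

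The largest increase was that of probe set 1448595_A_AT. Its log2 signal was 10.45, 9.98, 10.68 and 10.42 in tumors 1 to 4 and 3.71, 4.70, 3.81 and 5.97 in adjacent lungs 1 to 4. All 4 tumors, tumor 2 included, were at nearly the same high level, and adjacent lung 4 was the highest of the adjacent arrays. Non-transgenic lung was at 3.77 ± 0.42 (SD, n = 4). The log2 fold change against adjacent lung was 5.83 (standard error 0.41, limma adjusted p = 7.2e-06), and within the 4 pairs the differences were 6.74, 5.28, 6.86 and 4.44.

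Among probe sets without overlap between tumors and adjacent lungs, the next largest increase was that of 1417231_AT, and it differed in tumor 2. Its log2 signal was 9.64, 6.65, 9.77 and 10.15 in tumors 1 to 4 and 3.60, 5.15, 4.62 and 5.54 in adjacent lungs 1 to 4, with non-transgenic lung at 3.55 ± 0.25 (SD, n = 4). Tumor 2 lay far below the other tumors and closer to the highest adjacent lung, which it still exceeded. The log2 fold change was 4.32 (standard error 0.63, limma adjusted p = 0.00079), and it was 5.12 without tumor 2.

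The largest decrease was that of probe set 1419905_S_AT. Its log2 signal was 3.09, 7.21, 3.78 and 3.56 in tumors 1 to 4, and it was 11.52, 11.63, 11.24 and 11.33 in adjacent lungs 1 to 4. Tumors 1, 3 and 4 were below the table's median, a level that was not shown to exceed background, and tumor 2 was about midway between them and the adjacent lungs. Non-transgenic lung was at 11.31 ± 0.24 (SD, n = 4). The log2 fold change was -7.02 (standard error 0.66, limma adjusted p = 4.1e-05), with pair differences of -8.43, -4.42, -7.46 and -7.77.

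Probe set 1425218_A_AT was among the brightest in lung and fell by 6.59 on the log2 scale (standard error 1.05, limma adjusted p = 0.0013). Its log2 signal was 3.31, 10.14, 5.72 and 3.97 in tumors 1 to 4 and 12.15, 12.42, 12.52 and 12.39 in adjacent lungs 1 to 4. The tumors spread widely (SD 3.07, n = 4), while the adjacent lungs lay close together (SD 0.16, n = 4) and non-transgenic lung was at 12.62 ± 0.04 (SD, n = 4). Without tumor 2 the log2 fold change was -8.04, larger than the -7.96 of 1419905_S_AT, so that the order of these probe sets turned. Because an array of the lower group lay under 4.18 in each of the 4 probe sets, the sizes of their changes are uncertain. The limma standard errors pool the spread of all 3 groups. In 1417231_AT, 1419905_S_AT and 1425218_A_AT the tumors spread more than either group of lungs, so that these errors understate the spread of the tumors. An unequal-variance test of tumors against adjacent lungs gave adjusted p values of 0.14, 0.13 and 0.2 for them. For 1448595_A_AT it gave an adjusted p of 0.076.

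**Figure D2:**
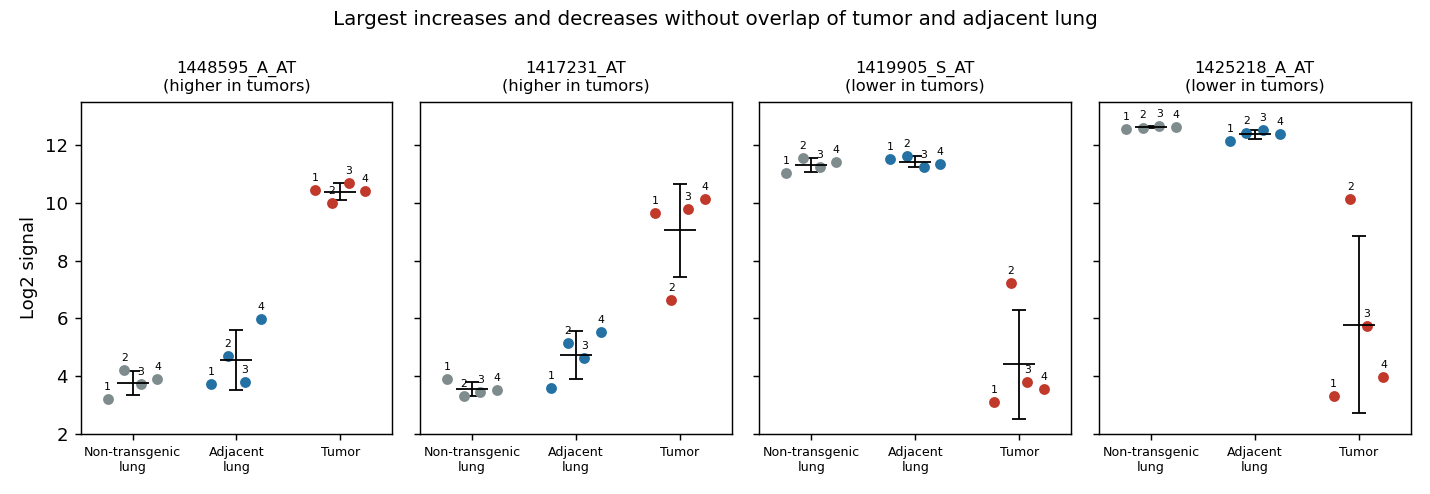
Log2 signal (vertical axis) of the 2 most increased and the 2 most decreased probe sets without overlap between tumors and adjacent lungs, in non-transgenic lung, adjacent lung and tumors, with each array as a point numbered by replicate and the mean and SD as bars. Tumor 2 sits with the other tumors only in 1448595_A_AT (9.98), and at 6.65, 7.21 and 10.14 it lies between tumors and lungs in the others.

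Among probe sets without overlap, those ranked 3 to 15 in each direction had log2 fold changes of 2.92 to 3.69 and of -6.43 to -5.06. In 12 of the 13 increases and all 13 decreases, the 4 non-transgenic lungs also lay beyond all tumors on the side of adjacent lung. Tumor 2 was the lowest tumor in 14 of these 15 largest increases and the highest in all 15 of the decreases. In 14 of the 15 decreases an array of tumor was at or below the table's median, whereas an adjacent array was that low in 8 of the 15 increases.

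Loss of a high signal was more frequent than gain of a signal from a low level. Of 9454 probe sets that were at or above the 75th percentile in all 4 adjacent lungs, 5 were at or below the median in all 4 tumors. In tumors 1, 3 and 4 alone this count was 132. Tumor 2 had retained a signal at or above the 75th percentile in 47 of these 132, lay between the marks in 80 and had lost the signal in 5. Of 20240 probe sets at or below the median in all adjacent lungs, 0 reached the 75th percentile in all 4 tumors and 11 did in tumors 1, 3 and 4. In 10 of these 11, tumor 2 was at or below the median like the lungs. These are counts of levels, with no test.

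Within pairs of the same number, the directions were shared widely, as the calls themselves require. Of the probe sets called, 2515 of 2845 were higher in the tumor in 4 of 4 pairs and 3584 of 3851 were lower in 4 of 4 pairs. The change reached 2-fold in every pair in 96 and 791 of them. Pair 2 had the smallest differences, with a median of 0.37 in the higher and -0.66 in the lower probe sets. In the remaining pairs the medians were 0.96 to 1.06 and -1.43 to -1.27. Across all 45037 probe sets, a 2-fold difference or more was seen upward in 1455 and downward in 1437 in pair 2. In pair 3, which holds adjacent lung 3, they numbered 3531 and 4472, and in pairs 1 and 4 they were 2289 to 2298 and 3350 to 3431.

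**Figure D3:**
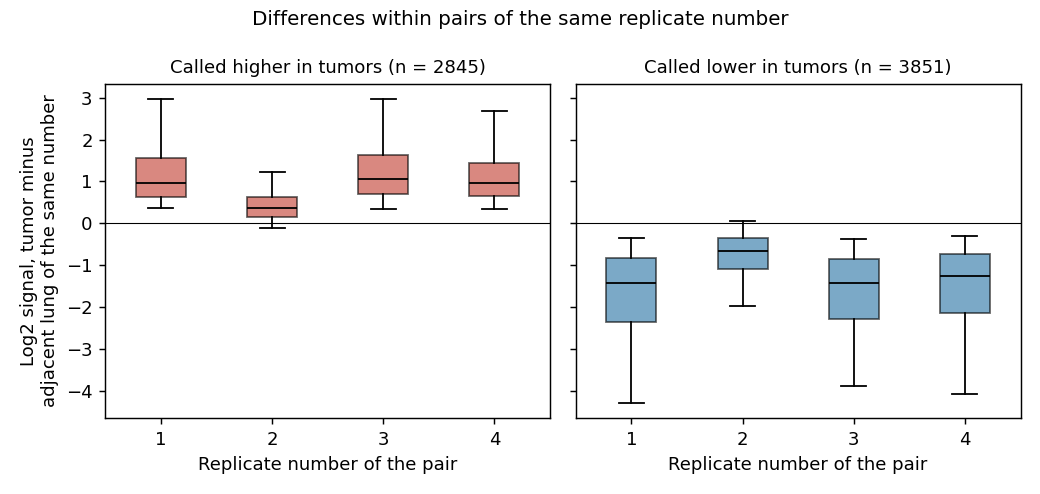
Difference in log2 signal between tumor and adjacent lung of the same replicate number (vertical axis) in the 4 pairs, for probe sets called higher (left, n = 2845) and lower (right, n = 3851), with boxes for the quartiles, lines for the medians and whiskers from the 5th to the 95th percentile. Pair 2 has the smallest medians, 0.37 and -0.66.

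Each array was then set against probe sets that had been called without it by limma (adjusted p below 0.05) and that changed by 2-fold or more. In the fit without tumor 1, 679 probe sets were higher and 1994 lower, and tumor 1 lay above all 4 adjacent lungs in 97.1% of the former and below them in 98.8% of the latter. Tumors 3 and 4 gave 97.8 to 98.0% and 98.3 to 99.1% in the fits that left each of them out. Tumor 2 departed from this. Of 2028 probe sets higher and 3076 lower without it, tumor 2 lay above all adjacent lungs in 35.9% and below them in 65.1%. Its median position, from the mean of adjacent lung at 0% to the mean of the other tumors at 100%, was 9.76% in the higher and 34.7% in the lower probe sets. Tumor 2 thus had more of the decreases than of the increases of the other tumors. The 2 lists differ in size and signal, and this difference was not tested. The fits without tumor 1, 3 or 4 kept tumor 2 among the tumors and called fewer probe sets, 581 to 679 higher and 1924 to 1994 lower. Their lists are thus unlike those made without tumor 2, and the shares are not on an equal footing. On their own lists, tumors 1, 3 and 4 had median positions of 110 to 128% in the higher and 117 to 121% in the lower probe sets.

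Adjacent lungs were examined in the same way against all 4 tumors. Adjacent lungs 1 and 2 lay below all tumors in 94.0% and 86.5% of the probe sets called higher without them, and adjacent lungs 3 and 4 in 68.8% and 65.5%. For probe sets called lower, the adjacent lungs lay above all tumors in 84.4% (lung 3) to 98.3% (lung 1). Tumor 2 was one of the tumors that had to be passed in each of these shares.

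**Figure D4:**
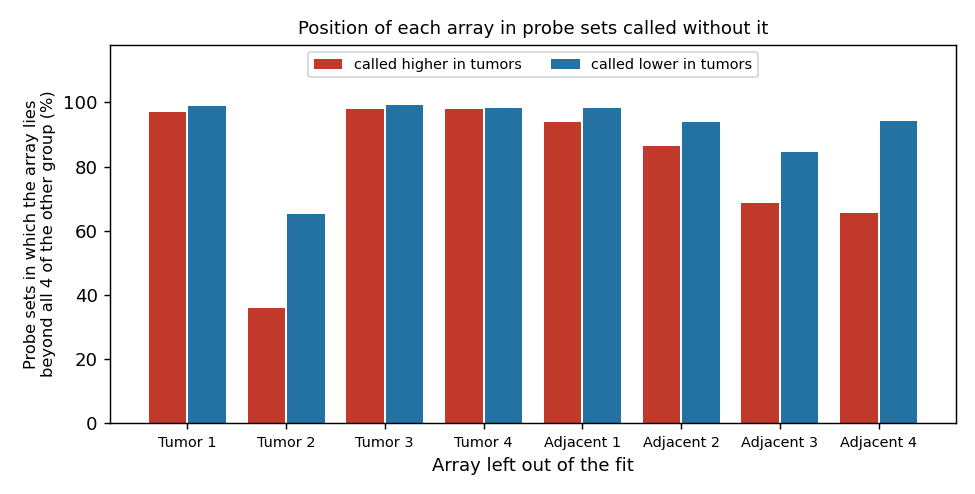
Percentage of probe sets, called at least 2-fold higher (red) or lower (blue) in tumors by a fit without the array on the horizontal axis, in which that array lies beyond all 4 arrays of the other group. Tumors 1, 3 and 4 reach 97.1 to 99.1%, and tumor 2 reaches 35.9% and 65.1%, each on its own list of probe sets.

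Tumors varied more among themselves than adjacent lungs did in the probe sets that differed. In those called higher, the median SD was 0.393 in tumors and 0.209 in adjacent lung, and the SD was larger in tumors in 79.2% of them. In those called lower, the medians were 0.420 and 0.241. Over all probe sets the medians were close, at 0.216 and 0.213, and over the 22720 probe sets with a mean above the table's median they were 0.309 and 0.216, with the larger SD in tumors in 67.1%. Without tumor 2 the median SD of tumors was 0.209 in the higher and 0.225 in the lower probe sets, and without adjacent lung 3 that of adjacent lung was 0.169 and 0.198. These probe sets were called on the same arrays, and the SDs are given as a description.

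Of the transcripts named by the array's controls, the glycolytic enzyme Gapdh had the higher signal in tumors, and the signal for 18S rRNA, the RNA of the small ribosomal subunit, was lower. The 3′ control of Gapdh had a log2 signal of 12.37, 11.78, 12.48 and 12.28 in tumors 1 to 4 and 10.90, 11.16, 10.87 and 11.27 in adjacent lungs 1 to 4. All tumors were above all adjacent lungs, and tumor 2 was the lowest tumor. The difference was 1.18 (exact permutation test, two-sided, p = 0.029, the smallest p that 4 arrays against 4 allow, adjusted p = 0.09 over 19 controls). The 5′ and middle controls differed by 1.28 and 1.67 with the same p, and the latter includes adjacent lung 3 at 9.01, where the other adjacent lungs were at 10.77 to 11.09. When the controls were fitted with all 45101 probe sets, limma gave adjusted p values of 0.00072, 0.0016 and 0.0097 for the 3′, 5′ and middle controls of Gapdh.

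The 3′ control of 18S rRNA had a log2 signal of 7.35, 7.76, 6.56 and 6.17 in tumors 1 to 4 and 10.21, 9.34, 9.17 and 7.97 in adjacent lungs 1 to 4. The groups did not overlap, but adjacent lung 4 was only just above tumor 2. The difference was -2.21 (exact permutation test, two-sided, p = 0.029, adjusted p = 0.09), and limma gave an adjusted p of 0.0039. The 5′ and middle controls differed by -2.59 and -1.42, and here the groups overlapped, with adjacent lung 4 at 6.76 and 6.41 below tumor 2 at 7.38 and 6.82. The exact permutation test (two-sided) gave p = 0.057 and 0.086 for them (adjusted p = 0.14 and 0.16), and limma gave adjusted p values of 0.018 and 0.028. Ribosomal RNA lacks the poly(A) tail from which arrays of this type are usually primed, and whether its signal followed the amount in the tissue was not tested.

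Beta-actin, a protein of the cytoskeleton, was 0.20 lower in tumors by its 3′ control, with means of 13.22 ± 0.03 for tumors and 13.41 ± 0.11 for adjacent lung (SD, n = 4 each). The groups did not overlap, but adjacent lung 3 (13.26) was only just above tumor 2 (13.25). The exact permutation test (two-sided) gave p = 0.029 (adjusted p = 0.09), as for the 3′ controls of Gapdh and 18S rRNA. None of the 3 controls of beta-actin passed in limma (adjusted p = 0.086 to 0.18). With each array centred on its median, the difference of the 3′ control of beta-actin was -0.08, while those of Gapdh and 18S rRNA were 1.29 and -2.10. The mean 3′ minus 5′ signal of Gapdh and beta-actin, a measure of RNA quality, was 0.50 ± 0.14 for tumors and 0.52 ± 0.09 for adjacent lung (SD, n = 4 each; exact permutation test, two-sided, p = 0.77), with tumor 2 at 0.61.

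**Figure D5:**
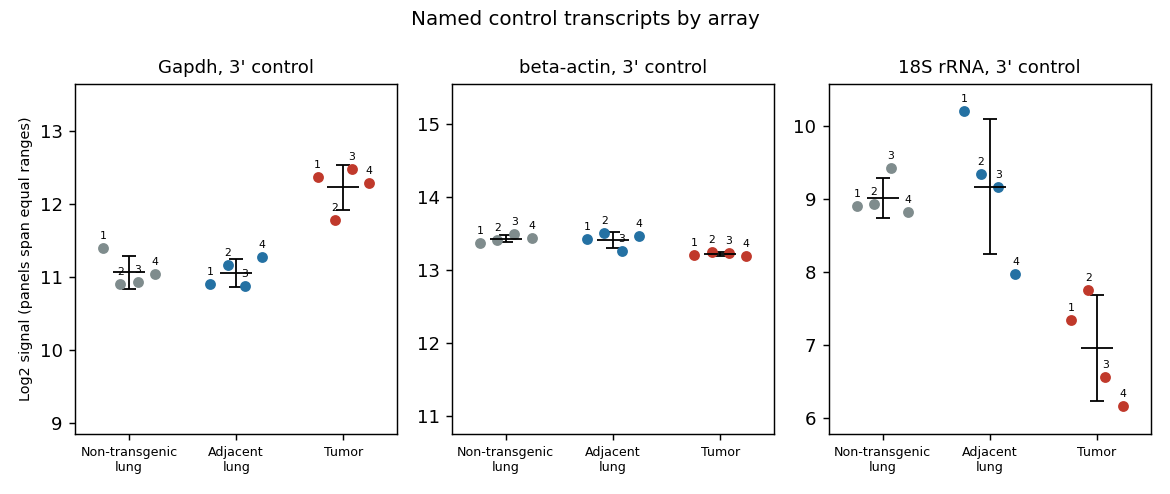
Log2 signal (vertical axes, equal spans) of the 3′ controls of Gapdh, beta-actin and 18S rRNA in non-transgenic lung, adjacent lung and tumors, with each array as a point numbered by replicate and the mean and SD as bars. Gapdh is higher in all tumors (11.78 to 12.48) than in all adjacent lungs (10.87 to 11.27), and 18S rRNA is lower.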

How the data were processed

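The values deposited by the authors were log2 signals, background corrected and normalized between arrays. Robust Multichip Average and filtering in GeneSifter are named in the paper's methods, whereas GCRMA, with no version, stands in the submitters' processing notes. The table held all 45101 probe sets, from 1.50 to 14.51, so that no filter was visible. Its values did not settle which method was used.

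Groups and replicate numbers came from the sample titles. limma 3.58.1 in R 4.3.3 (lmFit, then eBayes with an intensity trend) was fitted to all 45037 probe sets other than controls and all 12 arrays in 3 groups, as the methods' analysis of variance does, with no block. A Benjamini-Hochberg adjusted p below 0.05 counted as a call, and p-values measure the spread between these arrays only. The script was tested on simulated data. The number of arrays limits the precision. The paper calls the 12 samples independent, while the labels imply 4 mice with a tumor and an adjacent lung each. Deviations from the group means correlated within pairs 1 to 4 by -0.03, 0.08, 0.07 and 0.10. The adjacent lung of the same number was the best match for tumors 3 and 4 but not for tumors 1 and 2. Because the group means include tumor 2 and adjacent lung 3, which stood apart, these values cannot settle whether the samples were paired.

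The single probe sets given were the 2 largest increases and 2 largest decreases among those called, without overlap between the groups and with the brighter group above 4.18, from a rule that took 15 genes on each side. The comparison and the lists were chosen with earlier results of these data known. The planned gene counts, pathway lists and cell type markers were not analysed here, since no table used here links probe sets to genes, and probe set numbers were not turned into names. For the same reason no sequence is printed. For the control transcripts, an exact permutation test (two-sided) was run over the 8 arrays, taken as independent although the labels imply pairs. An exact test within the 4 pairs could give no p below 0.125, and none was run. The alternatives were no intensity trend, a robust fit, filters at the median (4.18) and the 75th percentile (6.47) in at least 4 arrays, quantile normalization again, median centring, a floor at the 25th percentile (2.81), only the 8 arrays, the replicate number as a fixed or the mouse as a random block, an unequal-variance test, which the methods state for other assays and not for the arrays, each array left out, and tumor 2 with adjacent lung 3 left out.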

Additional observations from a re-analysis of the deposited data

Results flagged for a closer look

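Dixon's test for a value far from the rest of its group picked out 8 of the 52 measure and group combinations it was run on, and by chance it picks out about 1 in 20. Tumor 2 was at 6.65 in probe set 1417231_AT (other tumors 9.64 to 10.15) and at 7.21 in probe set 1419905_S_AT (other tumors 3.09 to 3.78), and its distance from the other tumors averaged 168.8 (others 111.1 to 117.3). Adjacent lung 3 was at 9.01 in the middle control of Gapdh (others 10.77 to 11.09), its distance from the other adjacent lungs averaged 125.3 (others 82.5 to 86.6), and 52.7% of its probe sets exceeded the median of the table (others 49.9 to 50.3%). The 3′ minus 5′ signal of adjacent lung 2 was 0.39 (others 0.55 to 0.57). The middle control of transferrin receptor was at 2.93 in tumor 1 (others 2.52 to 2.56), a level below the table's median.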

How the results depend on the processing

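The 2845 higher and 3851 lower probe sets became 1883 and 2204 with the filter at the 75th percentile, which tests 12251 probe sets, 803 and 2226 with the replicate block, 33 and 179 with an unequal-variance test after adjustment (3744 and 4753 without), and 6645 and 5828 without tumor 2 and adjacent lung 3. The higher ones became 5087 with median centring and 1117 with only the 8 arrays. With 1 array left out, the higher ones numbered 1264 to 5873 and the lower ones 2727 to 5658. Of the 803 and 2226 under the block, 780 and 2199 were among those called in the same direction. No probe set called under an alternative was called in the opposite direction as deposited. The 4 single probe sets kept their direction in every fit and passed in all but the unequal-variance test after adjustment (adjusted p = 0.076 to 0.2). The other counts of the same 2 results lay within 1.5 times. The gene-level alternatives were not run. The controls' alternatives, the fits without a non-transgenic array and the 2-fold and 4-fold counts were added after the data were seen. Tumor 2 and adjacent lung 3 stand apart in these same data. The counts in tumors 1, 3 and 4 alone, the SDs without either array and the fit without both rest on that choice. No control passed the exact test after adjustment, and 6 of the 19 passed in limma. Since 0.029 is the smallest p of the exact test (two-sided), most of the 19 controls would have had to reach it for any to pass. Not passing it therefore says little about a control.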

Other observations

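No further transcript named by the array's controls passed in limma or in the exact test after adjustment. Pyruvate carboxylase, which feeds oxaloacetate into the citric acid cycle, had a 3′ log2 signal of 7.08 ± 0.38 for tumors and 6.80 ± 0.27 for adjacent lung (SD, n = 4 each), a difference of 0.29 (exact permutation test, two-sided, p = 0.20, adjusted p = 0.29 over 19 controls). Within pairs 1 to 4 this difference was 0.56, 0.97, -0.38 and -0.01, so that tumors 1 and 2 alone lay above their adjacent lungs. The 3′ control of transferrin receptor, which takes up iron, averaged 3.91 ± 0.13 for tumors and 3.62 ± 0.05 for adjacent lung (SD, n = 4 each), without overlap but below the table's median of 4.18 in all 8 arrays (difference 0.29, exact permutation test, two-sided, p = 0.029, adjusted p = 0.09, limma adjusted p = 0.37). Non-transgenic lung averaged 3.88 ± 0.46 (SD, n = 4), close to the tumors, and its arrays ranged from 3.53 to 4.54.

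The B1 repeat, a short interspersed element of the mouse genome, was at 10.26, 10.46, 11.11 and 12.20 in tumors 1 to 4 and at 10.67 to 10.92 in adjacent lung, with tumor 4 the highest of the 8 arrays (difference 0.20, exact permutation test, two-sided, p = 0.86, adjusted p = 0.86). The controls of the B2 repeat differed by 0.23 and 0.08 (exact permutation test, two-sided, p = 0.17 and 0.40, adjusted p = 0.29 and 0.45), and tumor 4 was the highest array in both, at 8.17 and 14.13.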
